A study of Caenorhabditis elegans with 2 samples.

Results

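The 29478 nuclear regions examined for the tagged transcription factor subunit NFYA-1 came from a list before thresholding that includes background, called peaks here. Of these peaks, 438 had their summit upstream of a single gene and the NF-Y box, CCAAT on either strand, beside that summit. A peak of the authors' final thresholded list was overlapped by 71 of the 29478 and by none of the 438. The 30000 peaks deposited for both replicates together were taken, those in the nucleus were kept, and overlapping peaks were merged with the summit of the highest signal value. The summits of 5921 lay within 1000 bp upstream of a protein-coding transcript start, 2527 of these also lay inside no gene, and 2378 of these also did not lie between divergent starts at most 1000 bp apart. The box, whole within 50 bp of the summit in what is called the summit window here, was present in 438 of these 2378 peaks and absent from 1940. The choice used position and sequence, and a signal value only to set the summit where peaks were merged, which was so for 1 of the 438. The 438 peaks belonged to 431 genes, of which 7 had a pair of them, and 32 genes had both a peak with the box and a peak without it. The name single-gene held for all but 23 of the 438, which also lay within the upstream distance of a second gene's start. The peaks came from chromatin immunoprecipitation sequencing (ChIP-seq) of the nematode Caenorhabditis elegans, from whole hermaphrodites at the young adult stage of strain OP404, genotype unc-119(tm4063) III; wgIs404, in 2 biological replicates that form 1 group. The transgene wgIs404 encodes NFYA-1 with GFP and FLAG at its C-terminal end, the animals' age is given as unknown, chromatin was sonicated, and the precipitation used an antibody to GFP. No samples without the transgene were analysed here, and whole animals hold every tissue, so a signal cannot be assigned to a cell type.

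NF-Y is a complex of the subunits NF-YA, NF-YB and NF-YC. The B and C subunits pair through histone folds, and the A subunit joins them and makes the contacts that read CCAAT in the minor groove. In mammals the box is a common element of promoters and lies a short way upstream of the start of transcription. In C. elegans nfya-1 and nfya-2 encode A subunits, nfyb-1 a B subunit and nfyc-1 a C subunit, and NF-Y has been reported to act on the Hox gene egl-5 and the T-box gene tbx-2.

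The windows below are the 12 members of highest pooled signal among those whose sequence is shown, each with 50 bp to either side of the summit, on build ce11 (WBcel235, RefSeq sequence). They are shown for their high pooled signal at a summit with a box within 50 bp, though not every one of the strongest is printed. A high pooled signal did not mean strength in both replicates. Only srg-26, Y80D3A.8, hrg-9 and mksr-1 of them had a peak among the 5000 highest of both replicate lists. For mec-14 there was no overlapping peak in replicate 2, and for nlp-61 none in replicate 1. Each is written 5′ to 3′ on the strand of its gene, and the capitals mark the box, as CCAAT where the gene's strand reads it and as ATTGG where the other strand does.
srg-26, chrV:5330413-5330513, plus strand: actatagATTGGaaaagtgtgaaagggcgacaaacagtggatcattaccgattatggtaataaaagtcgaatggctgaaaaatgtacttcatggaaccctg
mec-14, chrIII:7193894-7193994, minus strand: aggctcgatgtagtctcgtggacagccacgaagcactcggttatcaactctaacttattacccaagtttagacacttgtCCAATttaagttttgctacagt
tbcb-1, chrV:13591945-13592045, plus strand: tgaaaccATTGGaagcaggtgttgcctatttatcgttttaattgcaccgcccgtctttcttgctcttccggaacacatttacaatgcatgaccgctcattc
Y80D3A.8, chrV:18940075-18940175, plus strand: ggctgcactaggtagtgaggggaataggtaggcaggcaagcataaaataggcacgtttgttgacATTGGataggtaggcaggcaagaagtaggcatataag
twk-25, chrIV:11504196-11504296, plus strand: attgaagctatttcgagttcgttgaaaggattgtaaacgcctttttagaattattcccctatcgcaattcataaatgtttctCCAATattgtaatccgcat
K03H6.4, chrIV:1521382-1521482, minus strand: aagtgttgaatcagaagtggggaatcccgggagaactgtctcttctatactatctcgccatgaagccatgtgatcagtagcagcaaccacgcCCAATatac
hrg-9, chrV:12963803-12963903, minus strand: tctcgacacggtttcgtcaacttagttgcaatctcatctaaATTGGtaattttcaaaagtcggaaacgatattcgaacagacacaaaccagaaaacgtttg
mksr-1, chrX:1069187-1069287, minus strand: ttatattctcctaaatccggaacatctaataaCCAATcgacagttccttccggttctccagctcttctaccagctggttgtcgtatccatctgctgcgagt
C50H2.13, chrV:9925785-9925885, plus strand: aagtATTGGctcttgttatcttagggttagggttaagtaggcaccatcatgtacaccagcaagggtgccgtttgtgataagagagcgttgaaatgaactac
pes-10, chrII:12847854-12847954, minus strand: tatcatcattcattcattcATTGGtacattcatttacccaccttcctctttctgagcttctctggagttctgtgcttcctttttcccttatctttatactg
col-118, chrIV:8847921-8848021, plus strand: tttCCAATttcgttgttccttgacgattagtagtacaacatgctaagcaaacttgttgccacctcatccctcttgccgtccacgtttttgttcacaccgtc
nlp-61, chrX:7626809-7626909, plus strand: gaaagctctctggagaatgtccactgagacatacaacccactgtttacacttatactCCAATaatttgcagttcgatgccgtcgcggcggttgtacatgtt
A further 5 windows are the members with 3 boxes, shown for how the copies are spaced and turned. C54D10.5 is one more than the rule for named genes gave and was added after its values were seen.
str-66, chrV:3104358-3104458, minus strand: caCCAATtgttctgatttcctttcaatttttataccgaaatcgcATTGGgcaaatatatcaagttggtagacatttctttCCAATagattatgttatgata
tnc-2, chrII:10466578-10466678, plus strand: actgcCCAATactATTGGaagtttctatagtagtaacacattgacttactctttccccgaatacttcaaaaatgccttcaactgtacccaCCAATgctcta
T09E8.4, chrV:13184378-13184478, minus strand: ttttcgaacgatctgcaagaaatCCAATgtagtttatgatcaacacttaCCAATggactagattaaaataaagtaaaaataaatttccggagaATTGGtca
F26A1.9, chrIII:4830005-4830105, minus strand: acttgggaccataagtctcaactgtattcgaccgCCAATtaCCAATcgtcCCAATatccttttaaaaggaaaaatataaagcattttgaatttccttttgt
C54D10.5, chrV:12428941-12429041, plus strand: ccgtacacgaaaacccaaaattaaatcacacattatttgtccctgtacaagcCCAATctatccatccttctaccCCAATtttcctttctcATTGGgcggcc

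Of these 12 windows, 6 read CCAAT on the strand of the gene and 6 on the other strand. In srg-26, tbcb-1, C50H2.13 and col-118 the box stands near the end of the window that is farther from the gene, and in mec-14, twk-25 and K03H6.4 it stands on the side nearer the gene. In Y80D3A.8, mksr-1, hrg-9 and nlp-61 it is nearer the centre, at 16, 16, 7 and 9 bp from the summit. Only the box itself is common to the windows by the rule, and its place and orientation were free.

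The deposited signal values have no stated scale, so they are compared only within one list. Each list holds a fixed number of peaks that includes background, and read depth is unknown. Intervals are exact Clopper-Pearson intervals at 95% (Newcombe intervals for differences of shares), which cover the counting of regions only. With 1 group of 2 samples there is no test across samples, and no p-value is given. Positions that meet the same rule as the summits made up 10.8% of the nuclear genome, and 8.07% of the nuclear peaks lay there (interval 7.76 to 8.38%). Among the stronger 50% of the nuclear peaks the share was 6.70% (6.30 to 7.12%), and among the 1000 strongest it was 3.80%.

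The box was as common at the upstream summits as in upstream sequence at large. It was present in 18.4% of the 2378 summit windows (interval 16.9 to 20.04%) and in 18.4% of all 10874693 windows of that width centred on a position that meets the rule, a ratio of 1.00. Called on its own, replicate 1 gave 19.6% (467 of 2381 peaks) and replicate 2 gave 18.4% (439 of 2383). Windows centred away from the same summits held the box no less often: at all 18 offsets from 100 to 500 bp to either side, in steps of 50 bp, the share was above that at the summit, from 18.5 to 20.3%. The windows overlap one another and share their peaks, and some on the side of the gene run into it, so the 18 offsets are not independent values.

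**Figure D1:**
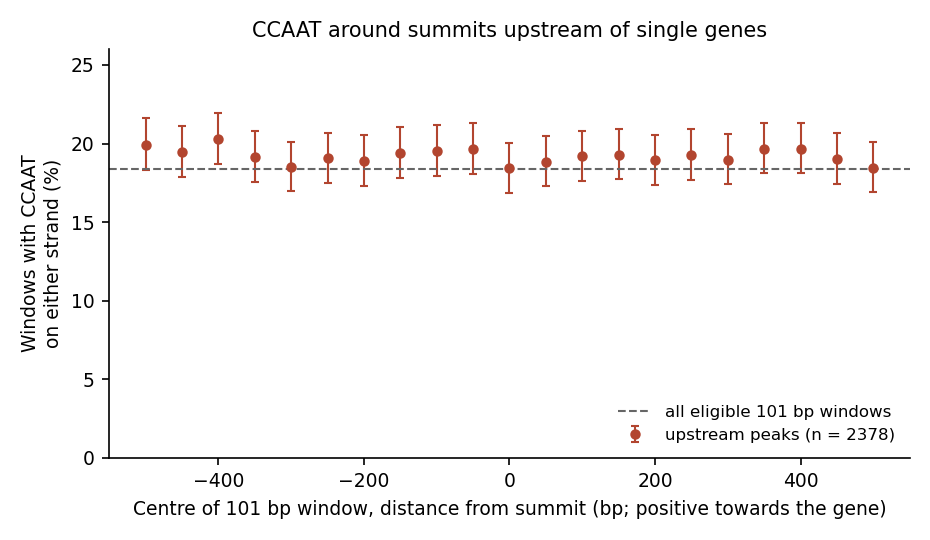
Share of windows of 50 bp to either side that hold CCAAT on either strand (y axis, %), by the distance of the window's centre from the summit (x axis, bp, positive towards the gene), for the 2378 upstream peaks; bars are exact 95% intervals over peaks and the dashed line is the share of all eligible windows. The point at the summit, 18.4%, lies on the dashed line, and the points from 100 bp outwards lie between 18.5 and 20.3%.

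The strength of the peaks did not order the share of box-bearing ones. With the upstream peaks cut by signal into 10 sets of nearly equal size, the share ran between 16.8%, in the strongest set, and 21.01%, in the eighth. It was 15% in the 100 strongest (interval 8.65 to 23.5%) and 18.6% in the 500 strongest (15.3 to 22.3%). Among peaks found in both replicate lists it was 19.9% (173 of 868, 17.3 to 22.7%), and among the rest 17.5% (265 of 1510, 15.7 to 19.6%), intervals that overlap. When every word of 5 bases was counted in the same way, CCAAT had rank 384 of 512 by the ratio of summit to eligible share. Those ratios ran from 0.762 to 1.53 with a median of 1.09. Of 30 words that rearrange its letters, counting a word and its reverse complement as 1, it ranked 28, and the lowest of their ratios was 0.958. The mean GC content was 36.7% in windows with the box and 36.5% in those without, against 33.5% in all eligible windows.

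Signal values of peaks with and without the box covered almost the same range. In the pooled list the 438 members ran from 13.5 to 38.1 with a median of 16.7 (interval 16.3 to 17.2), and the 1940 peaks without the box ran from 13.5 to 39.9 with a median of 16.8 (16.6 to 17.0). All nuclear peaks together had a median of 17.5 and reached 83.4. In replicate 1 the 264 members with an overlapping peak had a median of 7.68 (7.24 to 8.11), against 7.88 (7.67 to 8.05) for 1084 peaks without the box. In replicate 2 the 321 members with an overlapping peak had a median of 12.1 (11.8 to 12.4), against 11.95 (11.8 to 12.2) for 1423. The sign of the difference was thus not the same in the replicates, and in each list the intervals of the medians overlap. The stronger 50% of the nuclear list held 40.6% of the members and 41.8% of the peaks without the box, a difference of -1.11 points (-6.13 to 4.03). Of the 438 members 4 were among the 1000 strongest of the 29478 nuclear peaks, as were 34 of the 1940 upstream peaks without the box. Among the 5000 strongest the counts were 41 and 199.

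**Figure D2:**
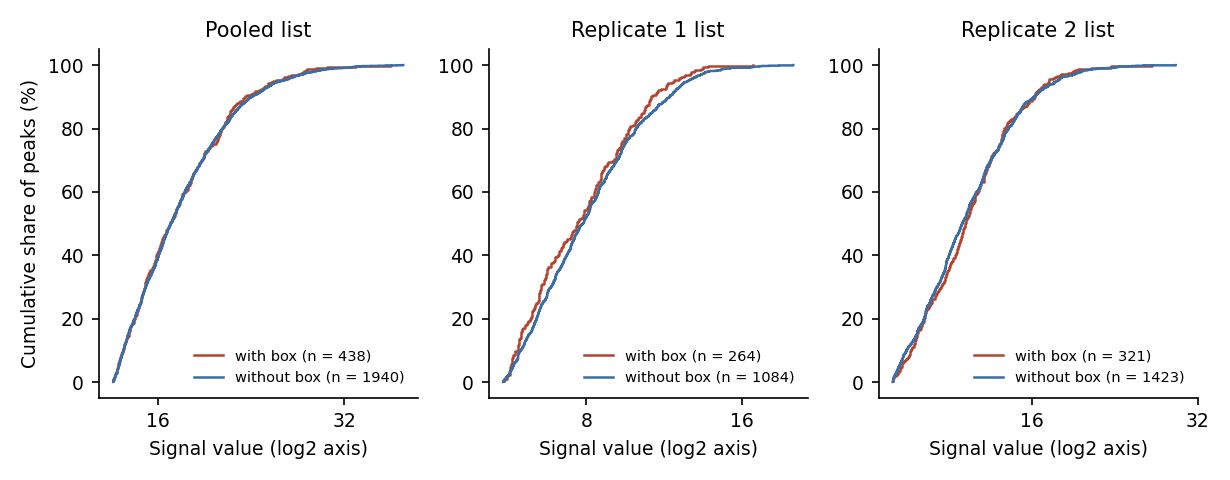
Cumulative share of upstream peaks (y axis, %) by signal value (x axis, log2 scale, no unit given) in the pooled, replicate 1 and replicate 2 lists, for peaks with the box (red) and without it (blue). The curves run close together in each list, with medians of 16.7 and 16.8, 7.68 and 7.88, and 12.1 and 11.95.

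The strongest member lay 127 bp upstream of lrp-2, which encodes a member of the low-density lipoprotein receptor family. Its region is I:3953973 to 3954262, and its signal values were 38.1 in the pooled list, 10.6 in replicate 1 and 26.4 in replicate 2, ranking 82nd, 3882nd and 91st among the nuclear peaks of these lists. It was therefore near the top of replicate 2 and much lower in replicate 1. The member 804 bp upstream of srg-26, a chemoreceptor gene of the srg family, had 33.5 pooled, 12.4 in replicate 1 and 18.9 in replicate 2. For mec-14, which encodes an aldo-keto reductase-like protein needed for touch sensitivity, the values were 30.97 pooled and 11.7 in replicate 1, with no overlapping peak in replicate 2. The member 129 bp upstream of tbcb-1, which encodes tubulin-folding cofactor B, had 30.04 pooled, 10.1 in replicate 1 and 22.3 in replicate 2. Of these 4, then, all but mec-14 had a peak in both replicates.

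Further down the order the replicates diverged in the same manner. The potassium channel gene twk-25 had 27.9 pooled, 8.54 in replicate 1 and 20.5 in replicate 2. The member upstream of gld-1, which encodes a translational repressor of the germ line, had 25.42 pooled, 5.69 in replicate 1 and 19.1 in replicate 2, close to the lowest value of the replicate 1 list but high in replicate 2. The neuropeptide-like gene nlp-61 had 26.3 pooled and 22.3 in replicate 2, with no overlapping peak in replicate 1. The reverse order was seen at grl-16, a gene of the ground-like family related to hedgehog, with 27.9 pooled, 13.8 in replicate 1, where it ranked 849th, and 13.9 in replicate 2, where it ranked 7789th. Among the 20 members of highest pooled signal, from 25.42 to 38.1, a peak was found in both replicates for 18. The pooled value is made from the same reads as the replicate values, so the count for the strongest pooled peaks is not independent of their rank. The others of the 20 were the peaks upstream of K03H6.4, C50H2.13, pes-10 (a gene transcribed in the early embryo), col-118 (a cuticle collagen), F58H1.5, tag-290 and C15F1.2, besides those named next.

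Strong peaks in both replicates were few. A peak among the 5000 highest of both replicate lists was found at 7 members, or 1.60% (interval 0.645 to 3.27%), against 1.65% of the peaks without the box and 3.4% of all nuclear peaks. They were the members at lrp-2, srg-26, Y80D3A.8, hrg-9, mksr-1, H35B03.2 and W04A8.4. At Y80D3A.8 the signal was 28.8 pooled, 16.7 in replicate 1, the highest of any member there, and 16.2 in replicate 2. At hrg-9, a heme-responsive gene, it was 27.5, 13.0 and 17.2 in the same order, and this member also lay upstream of the chemoreceptor gene srd-35. At mksr-1, which encodes a B9-domain protein of the transition zone of cilia, it was 27.4, 11.8 and 15.3. Values above the member medians of 7.68 and 12.1 were fixed in advance for these 3 members, since they were chosen by rank in both lists. None of the 438 members overlapped a peak of the authors' final thresholded list, which allows a share of up to 0.685% by the limit of 3 counts and 0.839% by the exact interval, against 2 of the 1940 peaks without the box and 0.241% of all nuclear peaks.

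A peak in both replicate lists, overlapping the member by at least 1 bp, was found for 173 of the 438 members. That is 39.5% (interval 34.9 to 44.2%), against 35.8% of the peaks without the box and 43.3% of all nuclear peaks. The difference between peaks with and without the box was 3.67 points (-1.29 to 8.78), an interval that includes 0 and does not show that they are alike. When summits at most 100 bp apart were required, the difference was -0.276 points, so its sign is not settled. A peak was found in replicate 1 alone for 91 members, in replicate 2 alone for 148 and in neither for 26. In replicate 1 the share was 60.3% of members against 55.9% of the others, and in replicate 2 it was 73.3% against 73.4%. Over the 173 members found in both, the rank correlation of the replicates' signal values was 0.058, and over the 695 such peaks without the box it was 0.107, both given as a description over peaks of the same libraries.

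**Figure D3:**
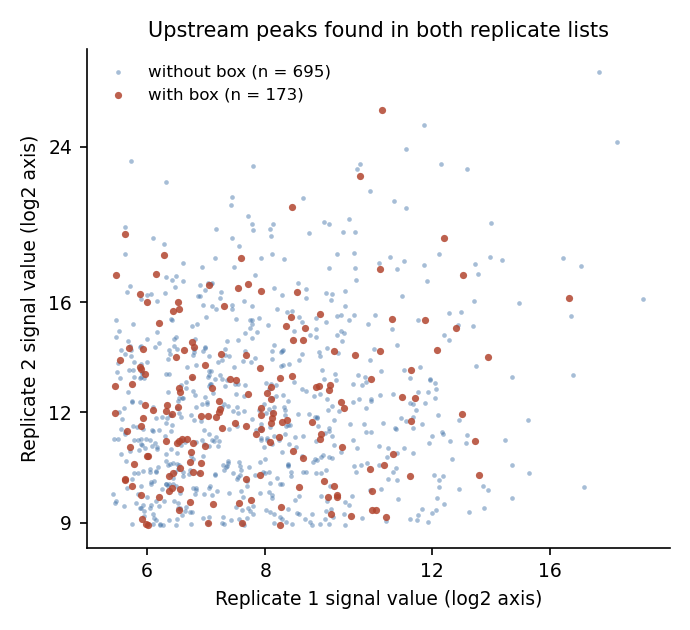
Signal value in replicate 2 (y axis, log2 scale) against replicate 1 (x axis, log2 scale) for the upstream peaks found in both lists, 173 with the box (red) and 695 without it (blue), 1 point per peak. The points form a cloud with little slope, with rank correlations of 0.058 and 0.107 over peaks that had to be in the pooled list and both replicate lists.

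Members whose box lay close to the summit were found in both replicates more often than the other upstream peaks under some definitions. With the box whole within 25 bp of the summit, 98 of 221 peaks were found in both lists, or 44.3% (37.7 to 51.2%), against 35.7% of the 2157 other upstream peaks (33.7 to 37.8%), a difference of 8.65 points (1.93 to 15.5). With the box reaching 26 to 50 bp away the share was 34.6%, with a box reaching 51 to 100 bp it was 36.4%, and with none within 100 bp it was 35.7%. The next settings were chosen after this value was seen. Requiring that 50% of the region be covered gave 6.59 points (0.153 to 13.4), and requiring summits at most 100 bp apart gave 4.24 points (-1.68 to 10.8), an interval that includes 0. The narrower window was 1 of 9 alternatives to the setting of 50 bp and 1 bp of overlap that were listed for this share, and no interval here is adjusted for their number. The median pooled signal was 16.9 with the box within 25 bp and 16.8 in the other upstream peaks. Whether signal bears on the share found in both lists was not tested.

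**Figure D4:**
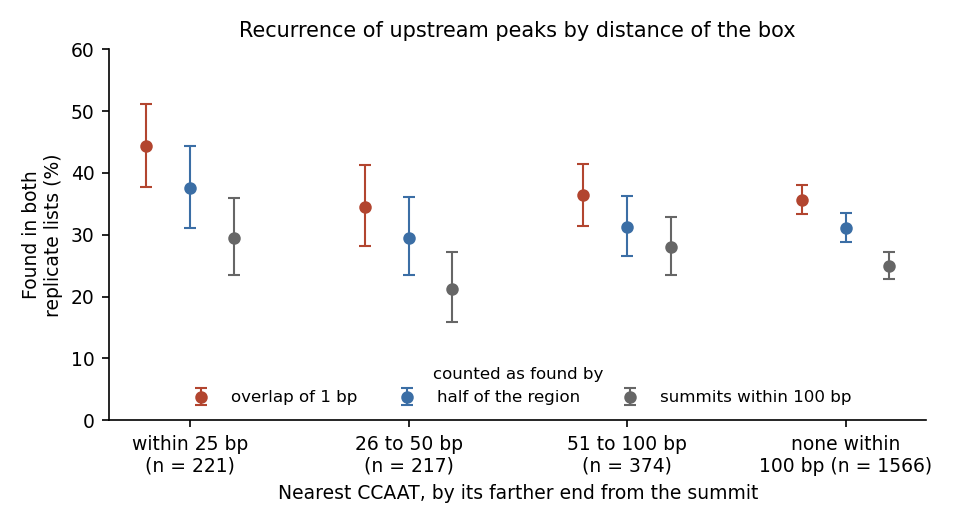
Share of upstream peaks found in both replicate lists (y axis, %) by how far the nearest CCAAT reaches from the summit (x axis), under 3 definitions of found (colours); bars are exact 95% intervals over peaks. Peaks with the box within 25 bp have the highest share under each definition, 44.3, 37.6 and 29.4%, and the last of these overlaps widely with the 28.1% at 51 to 100 bp.

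Values just inside and just outside the limits of the rule were close. The 75 members whose box reached 41 to 50 bp from the summit had a median signal of 17.0, and the 84 peaks just outside, whose box reached 51 to 60 bp, had 17.1. The 27 members with a summit in the outermost 100 bp of the upstream distance had a median of 16.3, and the 41 box-bearing peaks in the next 100 bp also had 16.3.

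The members spread over the whole upstream kilobase. Their summits lay 3 to 1000 bp from the gene start with a median of 418 bp (interval 381 to 454), against 423.5 bp (411 to 442) for peaks without the box. Summits at most 150 bp upstream made up 18.9% of the members and 21.9% of the others, a difference of -2.91 points (-6.79 to 1.41). Nearest to the start, in the first 100 bp, stood 12.3% of members and 14.6% of the others. The summit fell in sequence that the reference masks in lower case in 24.7% of members and 26.4% of the others, against 17.4% of all nuclear peaks and 39.7% of eligible positions. The central 31 bases recurred exactly elsewhere in the genome for 4 members, at C49F8.3, Y47G6A.33, mppe-1 and clec-238, or 0.913% (0.249 to 2.32%). Among the peaks without the box they did so for 26, or 1.34% (0.877 to 1.96%). At clec-238, a C-type lectin gene with 16.03 pooled and 11.2 in replicate 2, they occurred at 82 places, and reads of such sequence cannot be placed with certainty. These 4 genes were named after their values were seen, except clec-238.

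**Figure D5:**
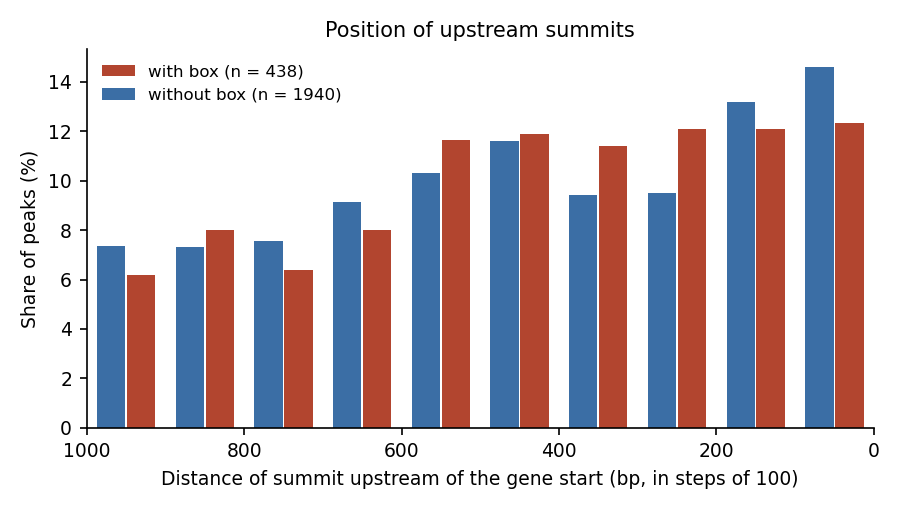
Share of peaks (y axis, %) by the distance of the summit from the gene start (x axis, bp, in steps of 100, with the gene on the right), for 438 peaks with the box (red) and 1940 without it (blue). Both sets are spread over the whole distance, with 12.3 and 14.6% in the first 100 bp and 6.16 and 7.37% in the last.

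The member windows held 499 boxes. On the strand of the gene 55.7% of them read CCAAT (interval 51.2 to 60.1%), close to the 56.8% of the 23054 boxes in eligible sequence. Their centres had a median distance of 25 bp from the summit and 409 bp from the gene start. For 8 members, among them those at the nuclear receptor gene nhr-249 and the chaperone gene dnj-26, the nearest box lay just past the start, since the window runs on both sides of the summit. The base after the box was T in 39.5% of member boxes (35.2 to 43.9%) and in 48.4% of boxes in eligible sequence. That eligible share lay outside the interval of the members, as it did for 8 of 32 flanking bases compared. The upstream peaks also had a higher mean GC content than eligible sequence, and whether this bears on the flanks was not tested. A fuller form of the box, with 2 purines before it and C or G and then a purine after it, occurred in 13 members. It made up 2.61% of member boxes (1.39 to 4.41%), against 4.27% of boxes in eligible sequence. The 2 purines before the box stood at 18.04% of member boxes (14.8 to 21.7%), against 22.5% of those in eligible sequence. Those 13 had a median pooled signal of 17.0 and the other members 16.7, and 38.5 and 39.5% of them were found in both replicates.

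Most members, 384, had 1 box, with a median pooled signal of 16.6. The 48 members with 2 boxes had a median of 17.2, with 22 pairs on the same strand, 26 on opposite strands, and spacings from 3 to 86 bp with a median of 24 bp. The 5 members with 3 boxes, whose windows are printed above, were among the weaker ones, from 13.7 to 14.8. At str-66, a chemoreceptor gene, the values were 14.8 pooled and 6.74 in replicate 1, with no peak in replicate 2. At tnc-2, which encodes a troponin C of pharyngeal muscle, they were 14.1 pooled and 9.82 in replicate 2, with no peak in replicate 1. At F26A1.9, where all 3 boxes read the same way within a short stretch, they were 13.9 pooled, 6.61 in replicate 1 and 11.2 in replicate 2. The single member with 4 boxes, at fubl-4, had 18.2 pooled, 5.55 in replicate 1 and 12.9 in replicate 2. Of these 6 members, fubl-4 lay above the pooled median of 16.7 and the other 5 below it, and they are too few for a comparison of groups.

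By chromosome the share of upstream peaks with the box ran from 12.9% on III to 20.5% on V. On III it was 27 of 209 (8.69 to 18.2%), below the 18.5% of eligible windows there, but the replicate lists gave 16.7 and 17.5% on III with intervals that include the eligible share. On V, 143 of 699 upstream peaks had the box, on X 86 of 476, and on I 50 of 250.

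Of 19973 protein-coding genes, 431 or 2.16% had an upstream peak with the box and 1852 or 9.27% one without it. The counts below are read against these shares, for gene lists chosen with earlier results of these data known. Chemoreceptor genes, the large families of serpentine receptors expressed mainly in sensory neurons, held the most in number, as the largest list: 46 of 1276 had a peak with the box, or 3.61%, and 177 one without it, or 13.9%. Per 100 kb of eligible sequence this came to 5.80 and 22.9 peaks, against 4.03 and 17.8 for all genes, so both kinds were above the whole. The box stood at 20.2% of the upstream peaks of chemoreceptor genes, close to the 18.6% of their eligible windows. After srg-26 the strongest were srb-19, with 24.5 pooled, 11.5 in replicate 1 and 12.5 in replicate 2, and str-149, with 24.4, 11.2 and 12.5. The peaks of srb-19 and str-149 lay above the member medians of 7.68 and 12.1, in replicate 2 only just. They were picked by pooled signal, which comes from the same reads, so this is not an independent result.

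Collagen genes of the cuticle had 7 of 156 with a box-bearing peak and 14 with a peak without the box, or 4.49 and 8.97%. Per 100 kb of eligible sequence this came to 9.91 and 19.8 peaks, and the box stood at 33.3% of their upstream peaks against 17.5% of their eligible windows. These shares rest on few peaks and were not tested. The strongest, col-118, had 26.9 pooled, 7.49 in replicate 1 and 16.6 in replicate 2, and a second member farther upstream of the same gene had 17.4 pooled and 10.8 in replicate 2, with no peak in replicate 1. The member of col-160 had 21.3 pooled, 6.96 in replicate 1 and 11.9 in replicate 2, and also lay upstream of col-159. Of these 3 peaks, then, only the first of col-118 was above the replicate 2 median of the members. The list of genes with fbx, math, bath, btb or sdz names, which holds F-box genes and other families, had 11 of 445 and 40, led by the F-box gene fbxc-29 with 22.6 pooled, 11.4 in replicate 1 and 13.4 in replicate 2. Nuclear hormone receptors had 7 of 269 and 39, led by nhr-249 with 19.4, 8.55 and 10.8, followed by nhr-67 with 18.6, 6.91 and 11.0. The members of these last lists were thus all below the 20 strongest members, the lowest of which had 25.42 pooled.

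Neuropeptide genes had 6 of 142 with a box-bearing peak and 20 with another. Besides nlp-61, flp-21 had 20.4 pooled, 8.33 in replicate 1 and 11.7 in replicate 2, and flp-4 had 19.97 pooled and 16.2 in replicate 2, with no peak in replicate 1. Potassium channel genes had 3 of 67, or 4.48% (twk-25, shl-1 and twk-18), and ligand-gated channel genes had 4 of 98, or 4.08%. Both shares were above the 2.16% of all genes, but on counts this small. Peaks without the box stood at 6 of the potassium channel genes, or 8.96%, and 16 of the ligand-gated ones, or 16.3%. Among all genes that share was 9.27%. The box stood at 30 and 20% of the upstream peaks of these 2 lists, against 18.5 and 15.6% of their eligible windows. The strongest of the ligand-gated list was exp-1, an excitatory GABA receptor, with 16.8 pooled, 7.92 in replicate 1 and 11.5 in replicate 2. Cytochrome P450 and UGT genes, which encode detoxification enzymes, had 4 of 141, C-type lectins 2 of 240 and G protein signalling genes 1 of 94, at the neuropeptide receptor gene npr-11. The G protein list had 19 genes with a peak lacking the box, so upstream peaks as such were present there. The box stood at 4.76% of its upstream peaks, against 17.8% of its eligible windows. For C-type lectins these shares were 10 and 16.2%, and for nuclear hormone receptors 14 and 16.6%. They went the other way for neuropeptide genes, at 22.2 and 18.7%, and for cytochrome P450 and UGT genes, at 22.2 and 18.6%. For the list led by fbxc-29 they were 21.2 and 18.5%. None of these shares was tested. Chaperone genes had 1 of 60, at dnj-26, and the cell cycle list had 1 of 45, at the cyclin A gene cya-1, whose peak of 13.7 was found in neither replicate.

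No upstream peak with the box was found for 78 ribosomal protein genes, 72 histone genes, 63 homeobox genes of the ceh series, 60 bHLH and zinc finger factors, 36 cytoskeletal genes, 33 proteasome genes, 24 genes of lipid synthesis, 24 of Wnt signalling, 20 of the endoplasmic reticulum stress response, 18 of the insulin and stress pathways or 6 Hox genes. Eligible sequence differed widely among them, from 4.63 kb for the proteasome genes to 42.7 kb for the ceh genes. Only 29 of the ribosomal protein genes and 11 of the proteasome genes had any outside a gene and away from a close divergent start. Of all genes 2.16% had a box-bearing peak, with 4.03 such peaks per 100 kb of eligible sequence. At those rates a single list of this size would hold few or none, and whether the zeros set these lists apart was not tested. Of the tissue marker lists of 10 genes each, the germ line (gld-1) and the pharynx (tnc-2) had 1 member, and neurons, muscle, intestine and hypodermis had none. Upstream peaks without the box were found at 4 of the 10 muscle genes, 2 of the hypodermis, 1 of the intestine and none of the neuron genes. They were also found at 10 of the 63 ceh genes, or 15.9%, at 5 of the 60 bHLH and zinc finger factors, and at none of the ribosomal protein, proteasome or Hox genes. The genes of NF-Y itself and its reported targets, nfya-1, nfya-2, nfyb-1, egl-5 and tbx-2, had no upstream peak of either kind, and nfyc-1 had no eligible sequence. No member was thus found at the 6 genes of that list.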

How the data were processed

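Per the labels, both samples are biological replicates of 1 group; whether they came from separate cultures is not stated. Per the deposited descriptions of the files, each list before thresholding was called from the alignments and a control, for each replicate and for both pooled. Neither aligner nor peak caller is named, being not given in the sources used here. The signal values deposited by the authors (column 7) have no stated scale, and read depth is unknown. Lists on build ce10 were not used.

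Positions were set against WBcel235 and Ensembl release 115. Nuclear peaks overlapping by at least 1 bp were merged. Eligible windows are all windows of 50 bp to either side of a position that meets the position rule, enumerated in full. CCAAT was counted on both strands where it lay whole inside the window. Medians have exact order-statistic intervals. Scripts in Python 3.11.15 with scipy 1.17.1, numpy 2.4.6, matplotlib 3.10.9 and pandas 2.3.3 were tested on simulated data. Members, gene lists and tests were chosen with earlier results of these data known. Genes named are those of the 20 strongest members, of members among the 5000 highest of both replicate lists, of up to 3 members per gene list, of up to 5 members with 3 or more boxes, and NF-Y genes and reported targets. Alternatives were other window widths, upstream distances, gene rules, merging, overlap rules and single replicates.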

Additional observations from a re-analysis of the deposited data

How the results depend on the processing

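No paired analysis was possible because there is 1 group and nothing to pair. Of 84 alternatives computed, 56 stayed close and 28 moved (beyond a factor of 1.5 for the number of members, beyond the interval for the share found in both replicates, beyond 1 SD between replicates otherwise); no comparison has a threshold, and no cause was tested. The number of members, 438, was 221 with the box within 25 bp, 812 within 100 bp, 262 with an upstream distance of 500 bp, 178 in the stronger 50% of the peaks, and 439 to 467 without one replicate. The share of 18.4% was 9.29% within 25 bp, 34.1% within 100 bp, and 18.4 to 19.6% without one replicate. Its ratio to eligible windows, 1.00, was 0.987 within 25 bp, 1.01 within 100 bp and 1.03 at an upstream distance of 500 bp. The same ratio was 0.980 in the stronger 50% and 1.00 to 1.07 without one replicate. The ratio to flanking windows, 0.962, was 0.906 in the stronger 50%, 0.922 with flanks at 400 bp, and 0.940 to 0.986 without one replicate. The median signal difference of -0.055 was 0.136 within 100 bp, and -0.132 to 0.0816 without one replicate. The median distance difference of -5.5 bp was -3 within 25 bp, 1.5 within 100 bp, 39.5 at an upstream distance of 500 bp, 11.5 outside protein-coding genes only, -10 with divergent starts up to 2000 bp apart, -9 without merging, 8.5 in the stronger 50%, and 24 to 27 without one replicate, so its sign is not settled. The share of boxes on the strand of the gene, 55.7%, was 58.2% within 25 bp, 57.3% within 100 bp, 60.1% at 500 bp, 56.7% with divergent starts up to 2000 bp apart, and 57.0 to 58.1% without one replicate. The difference in median GC, 0, was 0.990 points at 500 bp and outside protein-coding genes only. The share found in both replicates could not be recomputed without one replicate.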
